A study of Mus musculus with 2 samples.

Results

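The tricarboxylic acid (TCA) cycle genes described here are 32 mouse genes for the enzymes of the cycle, for the entry of pyruvate into it, for the glutamate and aspartate reactions beside it and for the synthesis of itaconate from it. The rule takes them by name, and all 32 were found by Entrez Gene number among the 18090 genes listed in at least 1 of the 2 deposited tables, with reads in both. The RNA came from dendritic cells, which present antigen to T cells, grown from bone marrow of C57BL/6 mice over 6 days in RPMI-1640 that held GM-CSF (10 ng/ml) and IL-4 (1 ng/ml), and then sorted by their surface CD86 and Iab, an MHC class II molecule. The immature group is 1 library of these cells. The mature group is 1 library, read here as the cells that the protocol treats with lipopolysaccharide (LPS), a bacterial cell wall component, at 100 ng/ml for 24 h in the same growth factors. Whether the immature cells stayed in culture for the same extra time, how many animals gave marrow and where the sort gates lay is not stated in the labels.

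In the cycle, acetyl-CoA made from pyruvate joins oxaloacetate to form citrate, which is oxidised stepwise in mitochondria back to oxaloacetate while electrons pass to the respiratory chain. In macrophages and dendritic cells, activation by LPS is known to reroute the cycle: the enzyme Acod1 (also Irg1) turns the intermediate cis-aconitate into itaconate, an inhibitor of succinate dehydrogenase, and citrate is exported for fatty acid synthesis. The comparison here asks how the transcripts of each step differed between the mature and the immature library.

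The libraries held 7.56 M and 8.07 M reads counted to genes, and levels are given as RPKM, reads per kilobase of gene model and per 1000000 counted reads. With 1 library per state there was no replicate error and no test, so every difference is one between these 2 libraries. Ratios are of RPKM, with the 95% counting interval in parentheses (exact Clopper-Pearson limits on the share of a gene's reads in each library). The intervals cover counting error only, and since no molecular identifiers are recorded, repeated reads of 1 molecule may be among the counts. The terms higher and lower by at least 2-fold refer to log2 of (mature RPKM + 1) over (immature RPKM + 1), called the log2 fold, at 1 or above and at -1 or below. This scale gives too small a change for genes of low level. RNA was pooled from all sorted cells, so that fewer cells of a type and less RNA per cell cannot be told apart.

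Most of the 32 genes were lower in the mature library, the larger part of them by less than 2-fold. On the scale above, 7 genes were at least 2-fold lower (Idh2, Suclg2, Idh3a, Fh1, Suclg1, Pdk3 and Mdh2), 1 was at least 2-fold higher (Pdk2) and 24 lay within 2-fold. Among the 11547 genes that reached 1 RPKM in either library, 11.3% were at least 2-fold lower and 9.05% at least 2-fold higher, against 21.9% and 3.12% of the 32. The counting interval lay wholly below 1 for 22 of the 32 genes and wholly above 1 for 6 (Acod1, Got1, Pdk2, Pcx, Glud1 and Sdhd), where 33.8% and 36.1% of all genes did so. It lay wholly beyond 2-fold for the 7 lower genes and for 0 higher ones, and for 8.67% and 7.23% of all genes. A log2 fold below 0 was found for 24 of the 32 genes and for 48.4% of all genes. The median log2 fold of the 32 was -0.55, beside 0.026 for all genes and 0.029 for the 9646 genes whose mean RPKM lay in the range of the 32. The genes nearest the threshold were Mdh2 inside it, with a log2 fold of -1.13, and Idh3g outside it, with -0.98. Summed over the 32 genes, the level was 2469 RPKM for immature and 1767 RPKM for mature cells, and without Acod1 it was 2273 and 1473 RPKM.

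**Figure D1:**
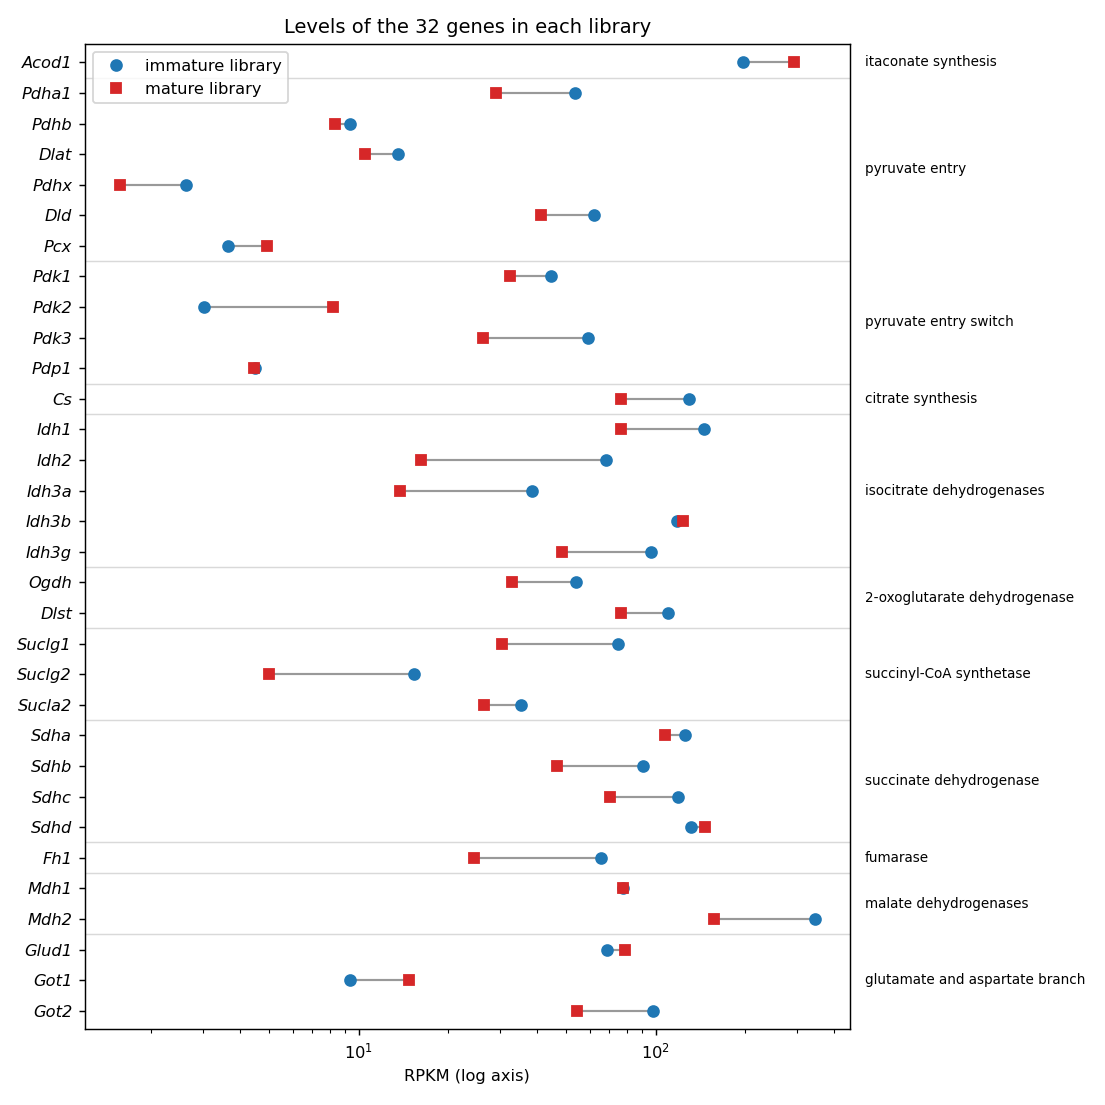
Level of each of the 32 genes in RPKM (log axis) in the immature library (blue circles) and the mature library (red squares), 1 library each, grouped by step. Squares lie left of circles for most genes, and Acod1, Pdk2, Pcx, Got1, Glud1 and Sdhd have the square on the right with intervals above a ratio of 1.

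Other measures moved between the libraries together with these genes. For comparison with the counts that follow, 11.3% of all genes passed the 2-fold limit on the lower side and 9.05% on the higher side. Of 15 markers of neutrophils and granulocyte precursors, 12 were at least 2-fold lower and 0 higher in the mature library, and their summed level was 8345 and 2049 RPKM, led by S100a9 and S100a8 in the immature library. Of 13 macrophage and monocyte markers, 7 were lower and 1 higher, at 9652 and 2342 RPKM summed, most of it Lyz2, and all 20 cell cycle genes were lower, at 870.2 and 74.6 RPKM summed. Of 10 eosinophil, basophil and mast cell markers, 6 were lower and 0 higher, the sums were 398 and 17.1 RPKM, and Fcer1a and Ms4a2 had 0 reads in both. Markers of B, T and NK cells summed to 4.47 and 5.68 RPKM and erythroid markers to 1.58 and 0.409 RPKM. Of 11 dendritic cell markers, all with reads in both libraries, 6 were at least 2-fold higher (Ccr7, Cd83, Cd80, Cd86, Zbtb46 and Flt3) and 1, Itgax, lower. Since the cells were sorted by surface CD86 and Iab, the values of Cd86 and of class II genes in this list may not be independent of the sort. The 11 markers summed to 8758 and 7137 RPKM. The most abundant in both libraries was Cd74, the class II invariant chain, at 5173 RPKM in immature and 2910.0 RPKM in mature cells, and the least abundant was Flt3, at 0.722 and 3.28 RPKM. The part of other cells and of cell division in the differences described here was not tested.

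Acod1 (Entrez Gene 16365), which makes itaconate, was abundant in both libraries. It had 3845 reads (196 RPKM) in the immature library against 6136 reads (294 RPKM) in the mature library, 1.5-fold higher (1.44 to 1.56). It thus stood above 98.1% and 99% of the genes listed in each library. In order of level it was the second of the 32 genes in the immature library, after Mdh2, and the first in the mature library. Its share of the summed RPKM of the 32 genes was 7.95% and 16.6%. Acod1 stood at 1.51 times the level of the citrate synthase gene Cs in the immature and 3.84 times in the mature library, a ratio 2.54-fold higher (2.36 to 2.73). Against Sdha, the catalytic subunit of the dehydrogenase that itaconate inhibits, it stood at 1.56 and 2.72 times, 1.74-fold higher (1.63 to 1.86). Such a ratio within a library needs no scaling between libraries.

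RefSeq promoter windows, 250 bases before to 50 after an annotated start, were at hand for 29 of the 32 genes (38 windows, build GRCm38.p6, while the files name mm8). Pdp1, Idh3a and Sdhc had no entry. The windows below are those of Acod1, of the pair of pyruvate dehydrogenase kinase genes that differed in opposite directions, and of Idh2, the member with the lowest log2 fold. They are shown so that the promoter letters can be read beside the levels, and capitals mark matches to the motifs named in the paragraph that follows.
Acod1, chr14:103046762-103047061, plus strand: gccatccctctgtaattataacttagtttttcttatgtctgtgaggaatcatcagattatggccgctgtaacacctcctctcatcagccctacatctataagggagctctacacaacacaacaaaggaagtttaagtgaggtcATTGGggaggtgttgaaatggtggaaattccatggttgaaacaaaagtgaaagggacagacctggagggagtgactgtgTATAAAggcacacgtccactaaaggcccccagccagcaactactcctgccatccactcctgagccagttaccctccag
Pdk2, chr11:95041322-95041621, minus strand: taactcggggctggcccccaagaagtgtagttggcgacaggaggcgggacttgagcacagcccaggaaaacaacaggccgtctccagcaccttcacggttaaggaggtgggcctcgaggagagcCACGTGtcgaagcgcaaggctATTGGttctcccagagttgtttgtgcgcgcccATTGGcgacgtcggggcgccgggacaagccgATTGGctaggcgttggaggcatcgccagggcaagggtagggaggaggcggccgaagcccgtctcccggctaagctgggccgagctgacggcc
Pdk3, chrX:93832101-93832400, minus strand: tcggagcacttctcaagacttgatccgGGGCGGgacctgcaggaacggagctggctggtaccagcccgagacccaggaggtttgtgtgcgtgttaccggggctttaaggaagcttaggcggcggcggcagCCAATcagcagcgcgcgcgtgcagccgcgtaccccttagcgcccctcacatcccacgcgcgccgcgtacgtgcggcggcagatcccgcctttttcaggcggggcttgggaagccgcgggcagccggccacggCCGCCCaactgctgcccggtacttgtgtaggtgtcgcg
Idh2, chr7:80115301-80115600, minus strand: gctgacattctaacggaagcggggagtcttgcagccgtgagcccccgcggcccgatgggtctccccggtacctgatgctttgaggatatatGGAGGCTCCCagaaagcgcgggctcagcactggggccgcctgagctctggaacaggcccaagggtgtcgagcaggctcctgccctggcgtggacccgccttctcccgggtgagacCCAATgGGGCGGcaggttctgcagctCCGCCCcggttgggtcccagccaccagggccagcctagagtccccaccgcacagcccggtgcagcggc

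The window of Acod1 held a CCAAT box, the commonest of the motifs searched among the member windows, 107 to 103 bases before the start. Its GC content was 47%, against a median of 61.2% over the 38 windows of the 32 genes and 52.7% over all 32851 windows. It held TATAAA, the TATA box, 28 to 23 bases before the start, a motif found in 5.26% of the member windows (Acod1 and Got2) and 13.6% of all windows. The GC box GGGCGG, absent from the windows of Acod1 and Pdk2 shown, was in 60.5% of member windows and 35.7% of all, and CCAAT in 63.2% and 37.4%. The window of Pdk2, 1 of 2 listed for that gene, held CCAAT on 3 occasions and the E-box CACGTG, which 13.2% of member and 7.15% of all windows held. The window of Pdk3 held 1 CCAAT and 2 GC boxes, and that of Idh2 held 1 CCAAT and 2 GC boxes besides a match to the NF-kB consensus 159 to 150 bases before the start. The NF-kB consensus was found in 23.7% of member windows, those of Dlst, Got1, Idh2, Ogdh, Pdha1, Pdk2, Sdhb, Sucla2 and Suclg2, and in 8.46% of all windows. For Pdk2 the match lay in its other window, which is not printed, 28 to 37 bases after the start. The other motifs searched, chosen like those above after the levels were seen, were the interferon-stimulated response element (0% of member and 0.17% of all windows), the NRF-1 consensus (2.63% and 1.27%), the estrogen-related receptor site TCAAGGTCA (2.63% and 0.423%) and the STAT site TTCNNNGAA (0% and 8.3%). Both strands were searched, no match overlapped another in the windows printed, and a match is only a run of letters.

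**Figure D2:**
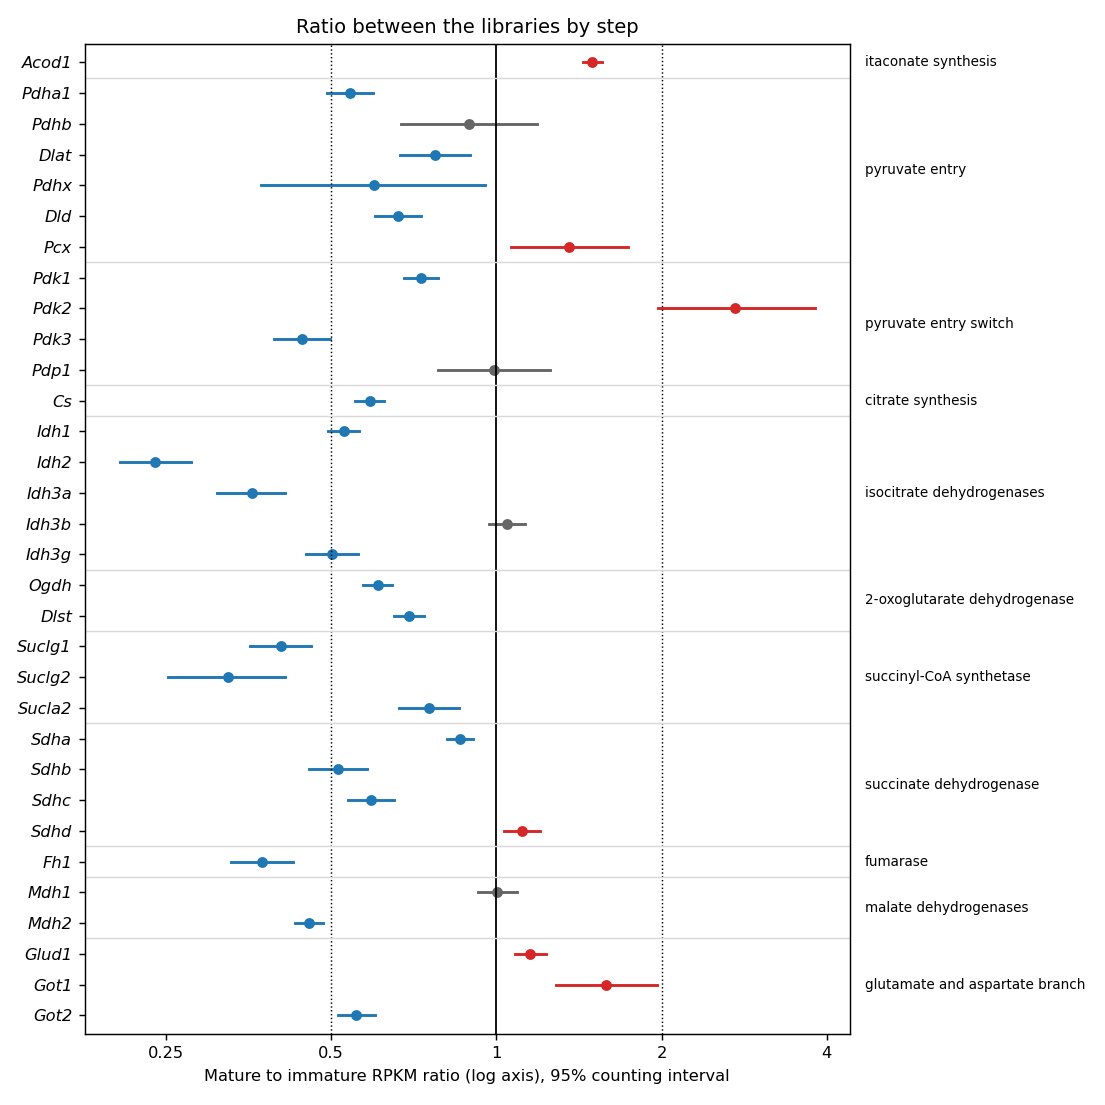
Ratio of mature to immature RPKM for each of the 32 genes (log axis, points) with its 95% counting interval (lines), 1 library per state, grouped by step. Blue intervals lie below 1, red above 1 and grey include 1, the dotted lines mark 2-fold, and the lowest point is Idh2 and the highest Pdk2.

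Pyruvate enters the cycle through the pyruvate dehydrogenase complex, and transcripts of its subunits were lower or alike in the mature library. Pdha1, the alpha subunit of the decarboxylating E1 component, stood at 53.5 RPKM in immature and 29.0 RPKM in mature cells, 1.84-fold lower (1.67 to 2.03). Dlat, the acetyltransferase core E2, stood at 13.5 and 10.5 RPKM, 1.29-fold lower (1.12 to 1.49), and Dld, the dihydrolipoyl dehydrogenase that this complex shares with the 2-oxoglutarate complex, at 61.9 and 41.0 RPKM, 1.51-fold lower (1.37 to 1.66). Pdhb, the beta subunit of E1, had 105 and 100 reads, a ratio of 0.892 (0.672 to 1.18), and Pdhx, which binds E3 to the core, had 50 and 32 reads, 1.67-fold lower (1.05 to 2.69). The 2 subunits of E1 are made in equal number in the enzyme, while Pdha1 stood at 5.73 times the level of Pdhb in the immature library. Reads covered only 18.2% and 19.2% of the Pdhb gene model, where genes with length and read number within 25% of its own had a median of 78.2% and 76.6%, so the levels of Pdhb are uncertain. Pcx, pyruvate carboxylase, which makes oxaloacetate from pyruvate and refills the cycle, was low in both libraries, at 3.63 and 4.93 RPKM, 1.36-fold higher (1.06 to 1.74). The level of Pcx relative to Pdha1 was 0.0679 and 0.17, a ratio 2.50-fold higher (1.92 to 3.27). Ldha, which turns pyruvate into lactate and is no member, stood at 20.5 and 33.6 times the level of Pdha1, 1.64-fold higher (1.48 to 1.81), with Ldha itself at 1098 and 976 RPKM.

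The kinases that switch pyruvate dehydrogenase off did not differ in the same direction. Pdk3 stood at 59.4 RPKM (899 reads) in immature and 26.3 RPKM (425 reads) in mature cells, 2.26-fold lower (2.01 to 2.54). Pdk1, which is known as a target of the hypoxia factor HIF-1, stood at 44.3 and 32.4 RPKM, 1.37-fold lower (1.27 to 1.47). Pdk2 stood at 3.02 RPKM (52 reads) and 8.21 RPKM (151 reads), 2.72-fold higher (1.97 to 3.80), and was the only member with a log2 fold above 1. It lay under 2-fold, at a log2 fold of 0.72, with a pseudocount of 5 RPKM in place of 1. The order of the kinases by level was Pdk3, Pdk1, Pdk2 in the immature and Pdk1, Pdk3, Pdk2 in the mature library, so Pdk2 remained the least abundant of these. Pdk3 stood at 19.7 times Pdk2 in the immature and 3.21 times in the mature library, a ratio 6.14-fold lower (4.35 to 8.76), the furthest from 1 of the 21 gene pairs compared. Pdk4, from the list of other pathway genes, had 4 and 5 reads. Pdp1, the phosphatase that switches the enzyme back on, stood at 4.50 and 4.45 RPKM, with a ratio whose interval included 1 (0.989, 0.782 to 1.25). Pdk3 relative to Pdp1 was 2.23-fold lower (1.71 to 2.91) and Pdk1 relative to Pdp1 1.35-fold lower (1.06 to 1.73).

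Citrate synthase, Cs, which joins acetyl-CoA to oxaloacetate, stood at 130 RPKM (2778 reads) in immature and 76.4 RPKM (1745 reads) in mature cells, 1.70-fold lower (1.6 to 1.81). Aco1, a cytosolic enzyme of citrate that is also an iron sensor and is no member, stood at 28.2 and 33.2 RPKM, 1.18-fold higher (1.08 to 1.29).

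The isocitrate dehydrogenases held the lowest ratio of the 32 genes, and their genes did not differ alike. Idh2, the mitochondrial NADP-dependent enzyme, stood at 68 RPKM (884 reads) in immature and 16.3 RPKM (226 reads) in mature cells, 4.18-fold lower (3.60 to 4.85). Idh1, the cytosolic NADP-dependent enzyme, stood at 146 and 76.7 RPKM, 1.90-fold lower (1.78 to 2.02). Idh1 thus stood at 2.14 times Idh2 in the immature and 4.71 times in the mature library, a ratio 2.2-fold higher (1.87 to 2.60). The NAD-dependent enzyme of the cycle itself is built from alpha, beta and gamma subunits, and their transcripts did not move together. Idh3a, the catalytic alpha subunit, stood at 38.4 and 13.8 RPKM, 2.79-fold lower (2.42 to 3.22), and Idh3g, the gamma subunit, at 96.5 and 48.4 RPKM, 1.99-fold lower (1.79 to 2.22). Idh3b, the beta subunit, stood at 118 and 123 RPKM, a ratio of 1.05 (0.971 to 1.13). Idh3a was the least abundant of these subunits in both libraries, at 0.326 times Idh3b in the immature and 0.112 times in the mature library, a ratio 2.92-fold lower (2.48 to 3.43). Against Idh3g the ratio was 1.40-fold lower (1.17 to 1.68).

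The 2-oxoglutarate dehydrogenase complex, which makes succinyl-CoA, was lower in both of its own components. Ogdh, the E1 component, stood at 53.9 and 32.8 RPKM, 1.64-fold lower (1.55 to 1.75), and Dlst, the E2 component, at 110.6 and 76.6 RPKM, 1.44-fold lower (1.36 to 1.54). The ratio of Ogdh to Dlst was 1.14-fold lower (1.04 to 1.24).

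Succinyl-CoA synthetase turns succinyl-CoA into succinate with the gain of a nucleoside triphosphate, and its summed level was 126 RPKM in immature and 61.9 RPKM in mature cells. Suclg1, the alpha subunit used by both forms of the enzyme, stood at 75 RPKM (798 reads) and 30.4 RPKM (345 reads), 2.47-fold lower (2.17 to 2.81). Suclg2, the beta subunit of the GTP-forming enzyme, stood at 15.4 RPKM (266 reads) and 5.0 RPKM (92 reads), 3.09-fold lower (2.43 to 3.96). Sucla2, the beta subunit of the ATP-forming enzyme, stood at 35.2 and 26.6 RPKM, 1.33-fold lower (1.17 to 1.51). Reads covered 77.5% and 75.1% of its gene model, where genes of like length and read number had a median of 92.7% and 91.3%. Of the beta subunits Sucla2 was the more abundant in both libraries, at 2.28 and 5.31 times Suclg2, and this ratio was 2.33-fold higher (1.77 to 3.07) in the mature library.

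Succinate dehydrogenase, which is also complex II of the respiratory chain, had subunits that differed unequally. Sdha, the flavoprotein that oxidises succinate, stood at 126 RPKM (2720 reads) in immature and 108 RPKM (2493 reads) in mature cells, 1.16-fold lower (1.10 to 1.23). Sdhb, the iron-sulfur subunit, stood at 90.9 and 46.8 RPKM, 1.94-fold lower (1.72 to 2.2), and Sdhc, a membrane anchor, at 119 and 70.3 RPKM, 1.69-fold lower (1.53 to 1.87). Sdhd, the other anchor, was higher, at 132 and 147 RPKM, by 1.11-fold (1.03 to 1.2). The 4 genes lay close together in the immature library, between 90.9 and 132 RPKM, and further apart in the mature library, between 46.8 and 147 RPKM. Sdhc relative to Sdhd was 1.88-fold lower (1.66 to 2.13), and Sdha relative to Sdhb 1.67-fold higher (1.46 to 1.91). Reads covered 77.1% and 72.9% of the Sdhb gene model, where genes of like length and read number had a median of 93.6% and 93.7%.

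Past succinate dehydrogenase, both remaining mitochondrial enzymes of the cycle were at least 2-fold lower. Fh1, fumarase, which hydrates fumarate to malate, stood at 65.6 RPKM (816 reads) and 24.6 RPKM (326 reads), 2.67-fold lower (2.35 to 3.05). Mdh2, the mitochondrial malate dehydrogenase that closes the cycle, was the most abundant of the 32 genes in the immature library, at 344 RPKM (3375 reads), and stood at 157 RPKM (1645 reads) in the mature library, 2.19-fold lower (2.06 to 2.32). With the trend of the log2 fold with gene length removed, Mdh2 lay at -0.998 and so just within 2-fold. Mdh1, the cytosolic enzyme of the malate-aspartate shuttle, stood at 77.5 and 77.9 RPKM, a ratio of 1.00 (0.926 to 1.09). Reads covered 68.3% and 65% of the Mdh1 gene model, where genes of like length and read number had a median of 94.8% and 95.7%.

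Amino acids enter and leave the cycle through glutamate and aspartate. Glud1, glutamate dehydrogenase, which makes 2-oxoglutarate from glutamate, stood at 68.6 and 79.2 RPKM, 1.15-fold higher (1.08 to 1.23). Got2, the mitochondrial aspartate aminotransferase, stood at 98.2 and 54.6 RPKM, 1.80-fold lower (1.66 to 1.94). Got1, its cytosolic counterpart, stood at 9.35 RPKM (146 reads) and 14.8 RPKM (247 reads), 1.58-fold higher (1.29 to 1.96). Reads covered only 34.5% and 37.5% of the Got1 gene model, where genes of like length and read number had a median of 78.3% and 86.8%, so its level is uncertain.

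Transcripts for cytosolic and mitochondrial forms of the same reaction make 3 pairs among the 32 genes. In each, the transcript balance lay further towards the cytosolic form in the mature library. Besides Idh1 to Idh2, given above, Mdh1 to Mdh2 went from 0.225 in the immature to 0.496 in the mature library, 2.2-fold higher (1.99 to 2.43), and Got1 to Got2 from 0.0952 to 0.271, 2.85-fold higher (2.28 to 3.57). In the first of these pairs both genes were lower, in the second the mitochondrial gene alone was lower, and in the third the genes went in opposite directions. Reads covered less of Mdh1 and of Got1 than of genes of like length and read number, as given above. The levels in their pairs are therefore uncertain. Of all 21 pairs compared, the counting interval of the ratio lay above 1 for 10, below 1 for 10 and included 1 for Dlat to Pdhx, at 1.29 (0.792 to 2.13). Whether a ratio lay above or below 1 depends on which gene is named first. The like share for pairs of other genes was not computed. For single genes, the interval lay wholly below 1 in 33.8% and wholly above 1 in 36.1% of all genes.

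**Figure D3:**
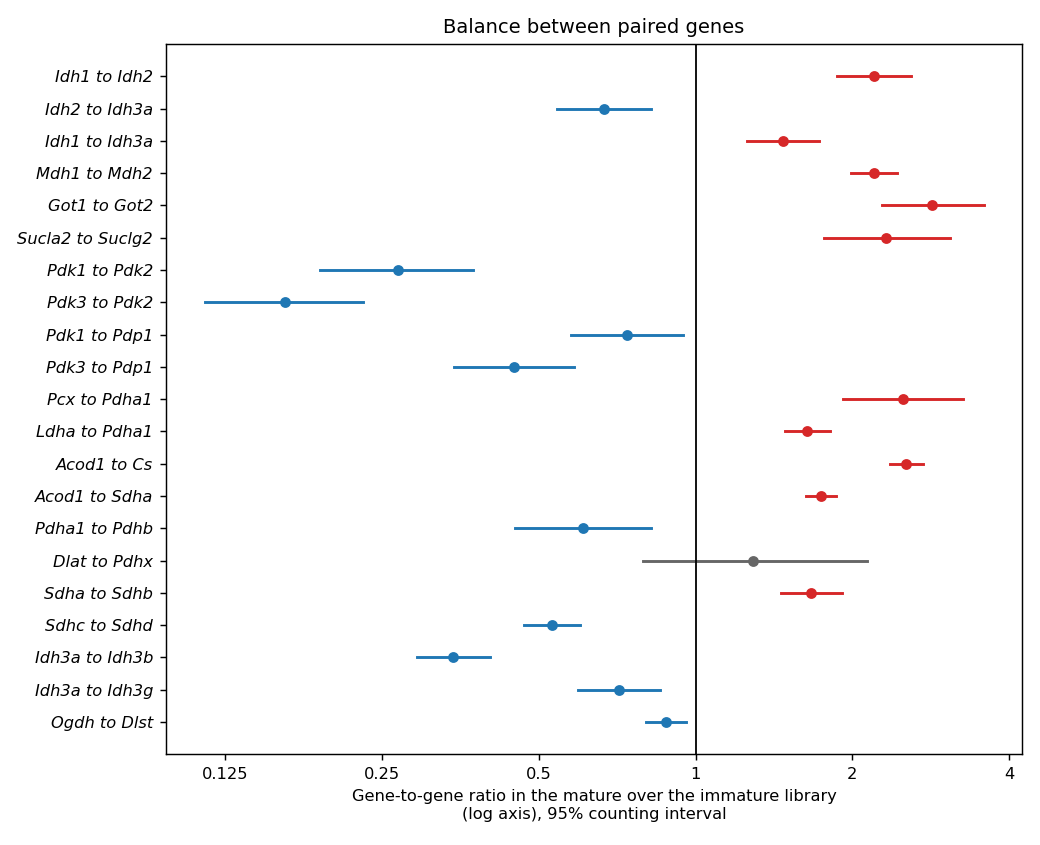
Ratio of the first to the second gene of each of 21 pairs in the mature library over the same ratio in the immature library (log axis, points), with the exact conditional 95% counting interval (lines). Red intervals lie above 1, blue below 1 and grey includes 1, and Pdk3 to Pdk2 lies furthest from 1.

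Of 39 other genes of the pathway, 30 reached 1 RPKM in a library, with a median log2 fold of -0.10. Of these, 2 (6.67%) were at least 2-fold higher, 3 (10%) at least 2-fold lower and 25 within 2-fold. Among all genes the shares were 9.05% higher and 11.3% lower, so neither share of this list exceeded that of all genes. The lower genes were enzymes that carry carbon into or out of the cycle. Acly, which splits exported citrate into acetyl-CoA for lipid synthesis, stood at 175 and 66.7 RPKM, 2.63-fold lower (2.51 to 2.76). Me2, the mitochondrial malic enzyme, stood at 33.6 and 13.5 RPKM, 2.48-fold lower (2.15 to 2.87), and Pck2, the mitochondrial phosphoenolpyruvate carboxykinase, at 5.99 and 2.37 RPKM, 2.53-fold lower (1.88 to 3.43). The higher genes were Pdpr, a regulatory subunit of the phosphatase that activates pyruvate dehydrogenase, at 4.51 and 10.4 RPKM, 2.31-fold higher (1.82 to 2.95), and Gls2, a glutaminase. Gls2 rested on 9 immature and 94 mature reads, 9.78-fold higher (4.94 to 22.1). All 6 mitochondrial carriers of cycle acids and all 4 assembly factors of succinate dehydrogenase lay within 2-fold on the log2 fold scale. Of the 11547 genes that reached 1 RPKM, 9192 did so. The plain ratios of the assembly factors ran from 0.468 (0.185 to 1.10, on 18 and 9 reads) to 1.85 (1.45 to 2.36). Of genes that handle itaconate or succinate, Clybl, an enzyme of itaconate breakdown, stood at 24 and 14.8 RPKM, 1.62-fold lower (1.31 to 2.01). Slc13a3, a carrier of dicarboxylates, had 6 and 36 reads, 5.62-fold higher (2.35 to 16.3), but lay within 2-fold on the log2 fold scale, at 0.94. The succinate receptor gene Sucnr1 had 0 reads in both libraries.

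The 16 genes for enzymes of the mitochondrial cycle alone, from Cs to Mdh2 with Dld and without the NADP-dependent isocitrate dehydrogenases, were set apart after their values were seen. Their median log2 fold was -0.75, with 5 of 16 at least 2-fold lower and 0 higher, where 11.3% and 9.05% of all genes were so, and their summed level was 1612 and 1028 RPKM. Idh3b and Sdhd were the members of this group with a ratio above 1. The nearest list was that of 40 oxidative phosphorylation subunits, with a median of -0.64, 7 genes at least 2-fold lower and 1 higher. The higher gene, Cox7c, rested on 11 and 31 reads over 12.5% and 26.5% of its gene model. Atp5j, among the lower genes, rested on 60 and 22 reads over 20.7% and 17.6%, so the levels of both are uncertain. No test of the difference between lists was made, and with 1 library per state none was possible.

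**Figure D4:**
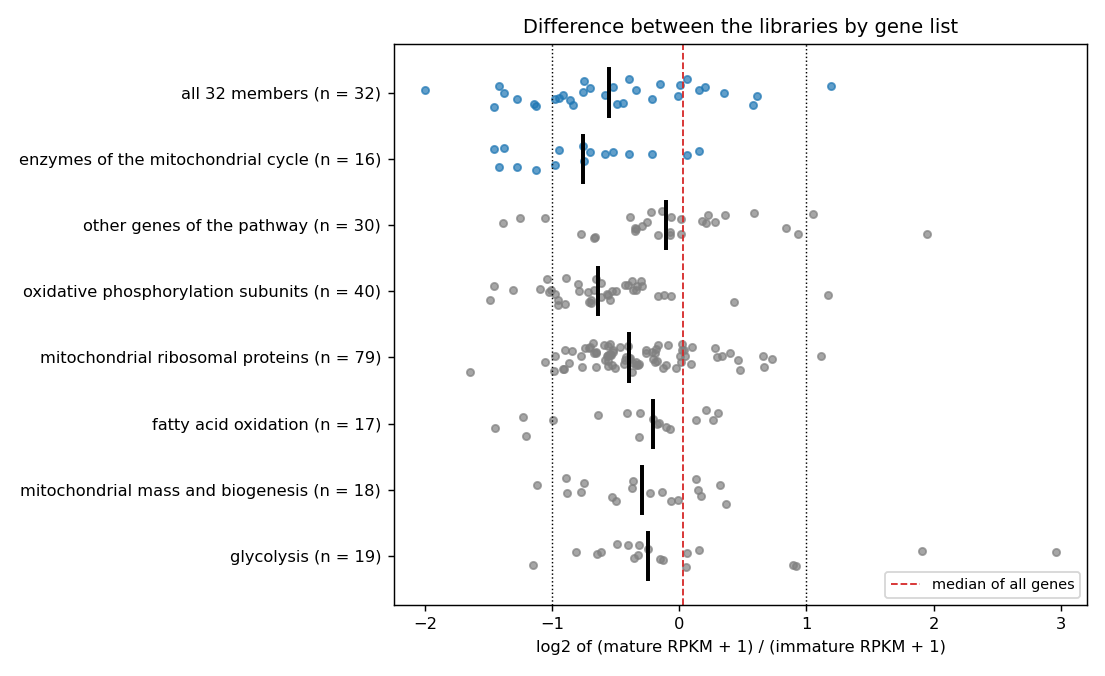
Log2 of (mature RPKM + 1) over (immature RPKM + 1) for the genes of each list that reached 1 RPKM in a library (points, spread vertically for sight), with the list's median (black bar), the median of all genes (dashed) and 2-fold (dotted). The medians of the 32 genes, of the 16 mitochondrial cycle genes and of the 40 oxidative phosphorylation genes lie at -0.55, -0.75 and -0.64, left of the median of all genes at 0.026.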

How the data were processed

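RNA-seq of 2 libraries, 1 of immature and 1 of mature dendritic cells, was used. Each deposited table gives, per the file headers, the count of uniquely placed reads per gene, unnormalised, the gene length, its coverage in percent, and RPKM, which the authors computed from the counts. Recomputing RPKM from reads, length and the header total returned the deposited values within a relative deviation of 1.07e-07. The submitters' processing notes name mm8 as the genome build. The aligner, counter, strand setting and annotation were not given in the sources used here. How reads of overlapping genes were assigned is therefore not known. Reads that fit near-identical copies equally well would be left out of a count of uniquely placed reads. The level of a gene with such copies may thus be given too low.

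Genes without reads are not listed, and an unlisted gene was set to 0 reads. Symbols came from the RefSeq gene table of GRCm38.p6 for 16219 of 18090 IDs; IDs without one held 0.538% and 0.758% of reads. Log2 folds used a pseudocount of 1 RPKM and genes reaching 1 RPKM in either library. Intervals and ratios of ratios were computed with scipy 1.17.1 and tested on simulated data. The simulation held counting error only, so it does not bear on repeated reads or on spread between libraries. Alternatives used other pseudocounts and filters, TMM (edgeR 4.0.16), median-of-ratios size factors (DESeq2 1.42.0), a common RPKM sum, removal of the length trend (statsmodels 0.14.6) and a minimum coverage of 50%. The 32 genes, the lists and the pairs were chosen with earlier results of these data known. All 32 genes are named; of other pathway genes Aco1 and those at least 2-fold apart, while 1 gene of that list and its pair are not reported here; Ldha, Pdk4, Clybl, Slc13a3 and Sucnr1 were added after their values were seen.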

Additional observations from a re-analysis of the deposited data

How the results depend on the processing

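No paired analysis was possible because each state has 1 library, and for the same reason no library could be left out. The 7 genes at least 2-fold lower stayed so under 8 of the 9 alternative settings of scaling, pseudocount, filter and coverage; removing the gene length trend left 6, without Mdh2, and TMM scaling added Idh3g. The count of genes at least 2-fold higher went from 1 to 0 with a pseudocount of 5 RPKM, and to 0 when the whole counting interval had to lie beyond 2-fold, a limit that all 7 lower genes met; 7.23% and 8.67% of all genes met it above and below. With a pseudocount of 5 RPKM the counts over all genes were 469 higher and 686 lower, in place of 1045 and 1310, since that pseudocount shrinks low genes. The median log2 fold of the 32 genes ranged from -0.70 (filter at 5 RPKM, or coverage of at least 50%, each with 29 of the genes) to -0.47 (common RPKM sum). The sign of Mdh1 turned under TMM scaling and that of Pdp1 under the common RPKM sum, and no other gene of the 32 turned under these settings. Adding 0.5 read to each cell moved no ratio between paired genes outside its interval. Depth limits Pdhx, Pdk2, Suclg2, Pdhb and Pcx most, with 32, 52, 92, 100 and 114 reads in the library where each had fewer.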

Other observations

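Other mitochondrial gene lists, beside the cycle genes, had medians below that of all genes. For the counts that follow, 11.3% of all genes were at least 2-fold lower and 9.05% at least 2-fold higher. Of 79 genes with a symbol starting with Mrpl or Mrps and at least 1 RPKM, named for mitochondrial ribosomal proteins, 61 had a log2 fold below 0. Of the 79, 2 were at least 2-fold lower, 1 was higher, and the median was -0.40, whereas 48.4% of all genes lay below 0. The 79 and the 61 include the pseudogenes Mrpl23-ps1 and Mrpl27-ps, each with 8 immature and 2 mature reads. Of 17 fatty acid oxidation genes, 3 (17.6%) were at least 2-fold lower and 0 higher, and the median was -0.21. The lower genes were Acaa2, a thiolase, at 33.7 and 11.7 RPKM, Etfa at 45.8 and 19.0 RPKM and Etfb at 3.01 and 0.742 RPKM. Etfa and Etfb are the subunits of the flavoprotein that takes electrons from acyl-CoA dehydrogenases. Etfb rested on 19 and 5 reads over 8.26% and 5.99% of its gene model, so its level is uncertain. Of 18 genes for mitochondrial import, chaperones and biogenesis, 5.56% were lower (Phb alone, a prohibitin, at 40.5 and 18.1 RPKM) and the median was -0.30. Of 40 oxidative phosphorylation subunits 38 lay below 0, with the complex I genes Ndufb8 at 129 and 45.4 RPKM and Ndufs8 at 52.9 and 18.6 RPKM at the lowest log2 folds. Of 19 glycolysis genes 12 lay below 0, and the median was -0.25. Among them, reads covered only 4.31% of the Gapdh gene model in both libraries, 12.2% and 11.6% of Pgk1 and 19.9% and 19.8% of Eno1. The levels of these genes are therefore uncertain. In the glycolysis list 10.5% were at least 2-fold higher and 5.26% at least 2-fold lower. Pfkfb3, which drives phosphofructokinase, at 9.22 and 78.7 RPKM, and Eno2, an enolase, at 4 and 75 reads, were at least 2-fold higher, and Aldoc, an aldolase, at 124 and 55.1 RPKM, was at least 2-fold lower.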
